A study of Caenorhabditis elegans with 2 samples.

Results

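The 10 genes described here encode the calcium switch of the muscle thin filament in Caenorhabditis elegans. They are lev-11 (tropomyosin), mup-2, tnt-2, tnt-3 and tnt-4 (troponin T), unc-27, tni-3 and tni-4 (troponin I), and pat-10 and tnc-2 (troponin C). They were taken by gene symbol from the deposited table of 46233 genes, and each symbol matched 1 row. All 10 had a mean over both libraries of at least 1 FPKM, the level required of a gene to be compared, as did 13436 genes in all. FPKM counts sequenced fragments relative to transcript length and to library size, so that levels can be compared between genes.

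The values come from 2 libraries, 1 of the wild type strain N2 and 1 of strain VC2324, which is labelled as a flp-6 mutant. Both were made from total RNA of whole larvae at the last larval stage (L4), grown at 25 °C. The sources used here do not describe the flp-6 allele, and no other allele or treatment is named for either strain. With 1 library per genotype, no value has an error between cultures and no test was made, so that each difference below is one between 2 libraries.

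Tropomyosin is a coiled coil that lies along the actin filament and, at rest, keeps myosin off it. Troponin sits on tropomyosin as a complex of a calcium-binding subunit (troponin C), an inhibitory subunit (troponin I) and a tropomyosin-binding subunit (troponin T). Calcium bound by troponin C lifts the inhibition and lets the muscle contract. Nematodes use separate troponin genes in body wall muscle, which moves the animal, and in pharyngeal muscle, which pumps food. In whole larvae, fewer muscle cells and less RNA per muscle cell cannot be told apart.

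The labels were first checked against the targeted gene. The flp-6 gene had 4.40 FPKM in the mutant, 7.59% of the 57.95 FPKM in N2. FPKM values of all genes added up to 989473 in the mutant and 1414572 in N2, and the number of reads behind them is unknown. The body wall muscle factor hlh-1 had 3.47 FPKM in the mutant and 2.58 in N2, and the pharyngeal muscle factor ceh-22 was near 0 in both, at 0.0881 and 0.221 FPKM. The other listed regulators of muscle fate went both ways. In the mutant and in N2, hnd-1 had 1.01 and 3.33 FPKM and unc-120 had 6.94 and 7.10. The pha-4 gene had 3.47 and 2.07 FPKM, and tbx-2 had 4.60 and 3.83. Of 8 sperm marker genes, 6 were at the level required, 5 of these were higher by 2-fold or more in the mutant, and the summed level of the 8 was 220.03 FPKM against 90.9 in N2. Of 9 intestinal markers 8 were matched. Their sum was 1396 FPKM in the mutant against 3250 in N2, and 1961 FPKM of the N2 sum came from asp-1. In the mutant library only, asp-1 was listed at 0.0001 FPKM, the table's entry for 0. Of the 7 intestinal markers above 0.0001 FPKM in both libraries, 4 were higher in the mutant and the rest lower. The part of these differences in the muscle gene values was not tested.

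None of the 10 genes differed by 2-fold between the libraries. Among all 13436 genes compared, 21.8% differed by 2-fold or more, with 10.5% higher in the mutant library and 11.3% lower. Differences are given as log2((mutant FPKM + 1)/(N2 FPKM + 1)), so that 1 stands for a 2-fold difference, and they understate the change of low genes. By this measure the 10 genes ranged from -0.77 for pat-10 to 0.64 for tnt-3, with a median of 0.21, beside a median of -0.10 over all genes compared. The median size of the difference, regardless of sign, was 0.33 for the 10 genes and 0.52 for all. Genes above 0 made up 6 of the 10 and 44.3% of all genes. The authors' deposited p-values and q-values also compare 1 library with the other. Without replicates they are not taken here to show a difference or its absence. None of the 10 was in the authors' picked table, which holds 715 of the 46233 genes. At so small a share, the absence of 10 genes says little about them.

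**Figure D1:**
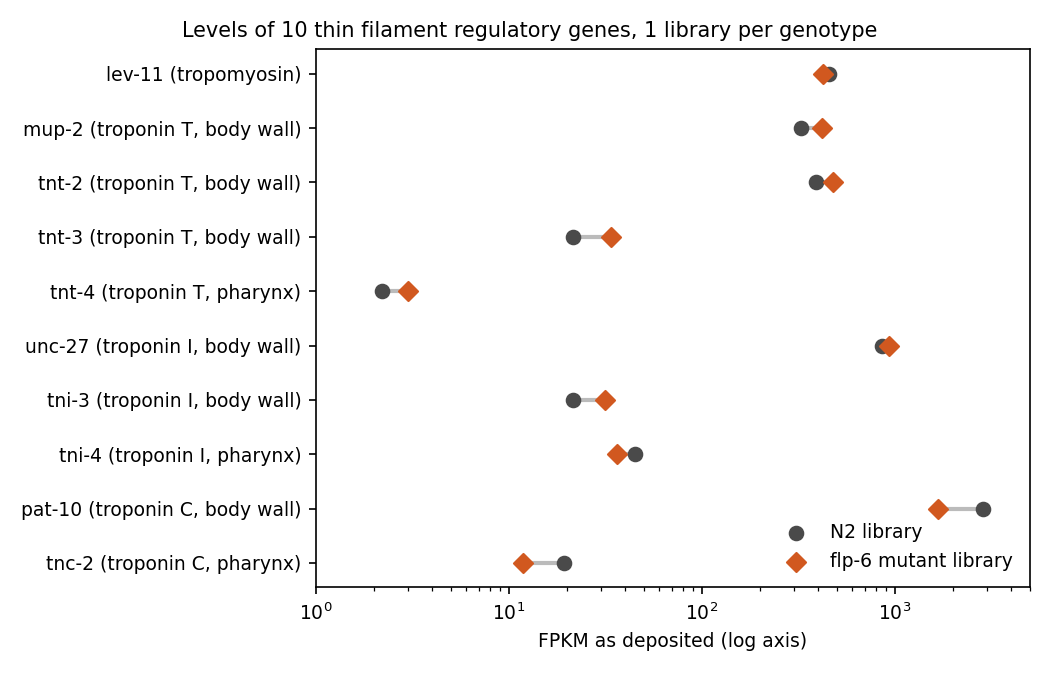
FPKM of each of the 10 genes on a log axis, with a grey circle for the N2 library and an orange diamond for the mutant library, 1 library each. The genes span from about 2.21 FPKM (tnt-4 in N2) to 2856 FPKM (pat-10 in N2), and the library difference of any gene is small beside this span.

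The genes differed from each other far more than the libraries did. The 5 genes with a mean above 100 FPKM were pat-10, unc-27, lev-11, tnt-2 and mup-2, and the other 5 had means between 2.60 and 40.7 FPKM. In the mutant library the order from high to low was pat-10, unc-27, tnt-2, lev-11, mup-2, tni-4, tnt-3, tni-3, tnc-2 and tnt-4. In N2 the order differed only in that lev-11 stood above tnt-2 and tni-3 above tnt-3. The second exchange is between values of 21.409 and 21.3996 FPKM in N2, and without replicates neither exchange can be set against an error. Among the 13436 genes compared, pat-10 was number 97 by level in the mutant library and number 83 in N2, and tnt-4 was number 10853 and 11234.

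Tropomyosin was nearly level between the libraries. The lev-11 gene (WBGene00002978, chromosome I, 14621169 to 14631094 in WBcel235, reverse strand) is the only tropomyosin gene of the worm. Its level was 424.4 FPKM in the mutant library against 457.5 FPKM in N2, or 92.8% of the N2 level. The log2 difference was -0.11, at percentile 49.7 among all genes compared, and its sign turned when the libraries were rescaled. The annotation gives lev-11 20 transcripts of 468 to 1536 nt, with coding sequences of 151 to 284 codons, which serve several muscles through alternative starts and splicing. The table holds 1 value for the whole gene, so that body wall and pharyngeal tropomyosins could not be set apart. The noncoding gene Y105E8B.14 lies within lev-11 on the other strand, shares 0 exonic bases with it and was listed at 0.0001 FPKM in both libraries.

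All 4 troponin T genes were higher in the mutant library, by less than 2-fold. The mup-2 gene, in which mutations displace the muscles of the embryo, had 416.5 FPKM in the mutant library and 326.4 in N2. The tnt-2 gene had 480.5 FPKM in the mutant library and 389.7 in N2. Both genes code for a single annotated protein, of 405 and 428 codons, and they differed by nearly the same amount, with log2 differences of 0.35 and 0.30. The level of tnt-2 relative to mup-2 was 1.15 in the mutant library and 1.19 in N2.

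The tnt-3 gene, a further troponin T of body wall muscle, had 33.9 FPKM in the mutant library and 21.4 in N2. Its log2 difference of 0.64 was the highest of the 10 genes and the only one at least 1.5-fold higher, a size that 19.4% of all genes compared reached. It is also the gene with the longest transcripts, with 11 annotated ones of 1285 to 4191 nt whose products range from 279 to 1235 codons. Transcripts as long as its longest were mostly higher in the mutant library, as given below. The tnt-4 gene, assigned to the pharynx, was the lowest of the 10, with 2.9997 FPKM in the mutant library and 2.21 in N2, a log2 difference of 0.32. At this level the added 1 FPKM matters, and without it the log2 ratio was 0.44 in the authors' deposited table.

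The troponin I genes split by size and muscle. The unc-27 gene, the main troponin I of body wall muscle whose loss makes animals uncoordinated, had 931.2 FPKM in the mutant library and 856.7 in N2, a log2 difference of 0.12. The tni-3 gene, which serves muscles of the head, vulva and anus, had 31.3 FPKM in the mutant library and 21.4 in N2, a log2 difference of 0.53. The pharyngeal tni-4 gene had 36.4 FPKM in the mutant library and 45.02 in N2, a log2 difference of -0.30. The level of tni-3 relative to tni-4 was 0.858 in the mutant library and 0.476 in N2. The other troponin I gene, tni-1, is not among the 10 but encodes a further body wall form, and it had 85.06 FPKM in the mutant library and 63.3 in N2, a log2 difference of 0.42. The 3 body wall troponin I genes were thus higher in the mutant library and the pharyngeal one lower. The sign of tni-4 turned to positive at equal FPKM sums of the libraries and after centring by transcript length. The tni-4 gene shares 16 exonic bases with Y59E9AL.36 on the other strand, which had 36.6 FPKM in the mutant and 26.8 in N2.

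Both troponin C genes were lower in the mutant library, and by a like amount, except that pat-10 came to 0.01 when centred on genes of like length and at least 20 FPKM. The pat-10 gene, the troponin C of body wall muscle without which embryos arrest paralysed, had 1669 FPKM in the mutant library and 2856 in N2. The mutant value was 58.4% of the N2 value, a log2 difference of -0.77, the lowest of the 10 genes. The pharyngeal tnc-2 gene had 11.8 FPKM in the mutant library and 19.4 in N2, which is 60.8% of the N2 level and a log2 difference of -0.67. These were the only genes of the 10 at least 1.5-fold lower, a size that 26.3% of all genes compared reached. They lay at percentiles 18.7 and 22.5 of the differences of all genes. The level of pat-10 relative to tnc-2 was 141.8 in the mutant library and 147.5 in N2, although one gene is expressed over 100 times more than the other. Both are short genes, with longest transcripts of 855 and 819 nt and coding sequences of 161 and 160 codons. The tnc-2 gene shares 157 exonic bases with clec-143 on the other strand, which was listed at 0.337 FPKM in the mutant and 0.148 in N2.

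The balance between the subunits therefore differed between the libraries, and this comparison does not depend on how the libraries are scaled. The 4 troponin T genes together had 933.9 FPKM in the mutant library and 739.7 in N2. The 3 troponin I genes together had 998.9 FPKM in the mutant library and 923.1 in N2, or 1084 and 986.4 with tni-1. The 2 troponin C genes together had 1681 FPKM in the mutant library and 2875 in N2. Troponin C transcripts were thus the most abundant subunit in both libraries, at 1.80 times troponin T in the mutant library and 3.89 times in N2. Relative to troponin I, troponin C stood at 1.68 in the mutant library and 3.11 in N2. Troponin T relative to troponin I was closer, at 0.935 in the mutant library and 0.801 in N2. Tropomyosin stood at 0.425 of troponin I in the mutant library and 0.496 in N2. The pat-10 gene made up 41.3% of the summed FPKM of the 10 genes in the mutant library and 57.2% in N2. The other 9 genes summed to 2369 FPKM in the mutant library and 2140 in N2. The troponin C genes also have the shorter transcripts, and the part of length in these ratios was not tested apart from the centring given below.

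**Figure D2:**
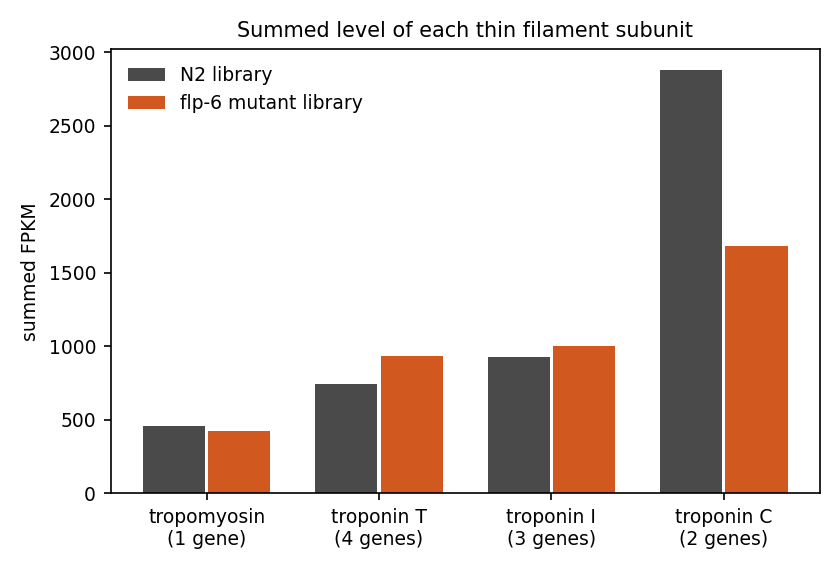
Summed FPKM of tropomyosin (1 gene), troponin T (4 genes), troponin I (3 genes) and troponin C (2 genes), with a grey bar for the N2 library and an orange bar for the mutant library. Troponin C is the tallest pair, at 2875 FPKM in N2 and 1681 in the mutant, while the troponin T and troponin I bars are slightly taller in the mutant library.

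Body wall genes carried nearly all of the troponin signal. Pharyngeal genes gave 0.321% of summed troponin T FPKM for the mutant and 0.298% for N2, and 0.701% and 0.673% of the troponin C sum. For troponin I the pharyngeal share was larger, at 3.65% in the mutant library and 4.88% in N2. The 6 body wall troponin genes had a median log2 difference of 0.33, with 5 above 0 and pat-10 below. The 3 pharyngeal genes had a median of -0.30, with tnt-4 above 0 and tni-4 and tnc-2 below. That median was 0.21 at equal FPKM sums of the libraries and also to 0.21 after centring by length, so that it gives no stable direction for the pharynx. Within the pharynx the subunits were less even than in the body wall. In N2 the tni-4 level was 20.4 times that of tnt-4 and the tnc-2 level 8.77 times, and in the mutant library these were 12.2 and 3.93 times.

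By position, 4 of the 10 genes lie on the X chromosome, namely mup-2 (WBGene00003495, 6408471 to 6410227), tnt-3 (WBGene00006588, 7937633 to 7945099), tnt-2 (WBGene00006587, 8721546 to 8723550) and unc-27 (WBGene00006764, 8789456 to 8790621). The last 2 are separated by 65905 bases. All 4 were higher in the mutant library, with log2 differences from 0.12 to 0.64, and tni-1, which is also on X, was higher as well. Of the 6 autosomal genes 2 were higher, tni-3 (WBGene00006585, chromosome V, 16833638 to 16835128) and tnt-4 (WBGene00006589, chromosome V, 1989471 to 1992918). The other 4 were lower: lev-11, pat-10 (WBGene00003934, chromosome I, 5018783 to 5020358), tnc-2 (WBGene00006583, chromosome II, 10466852 to 10468358) and tni-4 (WBGene00006586, chromosome IV, 5204591 to 5207124). X-linked genes in general were not higher. Among all genes compared, 43.5% of 1796 on X and 44.2% of 11500 on autosomes were above 0, with medians of -0.08 and -0.11.

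Transcript length moved with the difference, both among the 10 genes and in the libraries as a whole. Across the 10 genes Spearman's rho between the longest annotated transcript and the log2 difference was 0.67, and across 12999 genes it was 0.35. These genes share the same 2 libraries and are not independent replicates. Each gene was therefore also set against the 325 genes in its own bin of 40 length bins, by the longest annotated transcript. Genes of 791 to 843 nt, the bin of tnc-2 and tni-4, had a median log2 difference of -0.51, and those of 3826 to 4815 nt, the bin of tnt-3, one of 0.56. Relative to their bins, 5 of the 10 genes lay above the interquartile range (mup-2, tnt-2, tnt-4, unc-27 and tni-3), 5 inside it and 0 below, whereas 24.9% of all genes lay above theirs. Once the bin median was subtracted, tni-3 was the highest at 0.98 and unc-27 stood at 0.58. The value of tnt-3 was 0.08 by its longest transcript of 4191 nt but 0.82 with bins of the median annotated transcript length, so that the choice of length decides it. That choice also moved lev-11, from 0.02 to 0.33. The troponin C genes kept the lowest values, at -0.34 for pat-10 and -0.16 for tnc-2, both inside the interquartile range of genes of their length. After this centring 0 of the 10 genes passed 2-fold, against 10.9% of all genes higher and 3.15% lower.

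**Figure D3:**
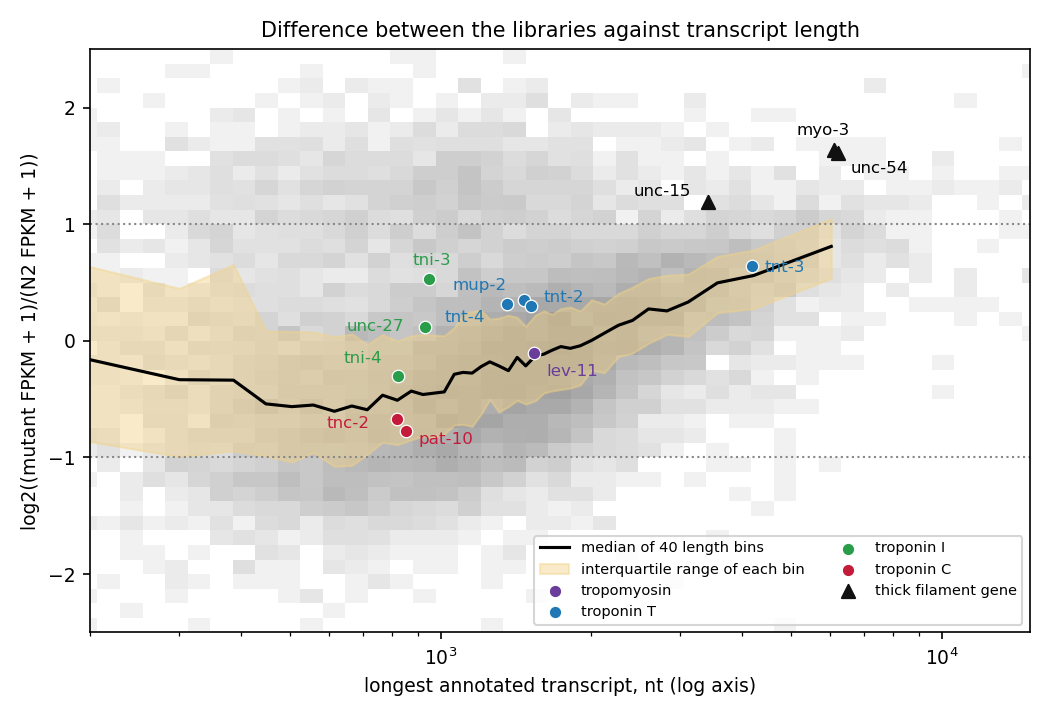
Log2 difference between the libraries against the longest annotated transcript on a log axis, with all genes as grey density, the median of 40 length bins as a black line and their interquartile range shaded. The troponin C genes (red) lie within the range of genes of their length, tnt-3 (blue, right) lies close to the median line when placed by its longest transcript, and tni-3, unc-27, mup-2, tnt-2 and tnt-4 lie above the range; the thick filament genes unc-54, myo-3 and unc-15 (triangles) are above 1.

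Expression level moved with the difference too, with a rho of -0.27 across the 12999 genes. Genes at a mean of 20 FPKM or more had a median of -0.28 and 20.3% of them differed by at least 2-fold in either direction. Set against genes of like mean FPKM, the main body wall genes stood higher, at 0.89 for mup-2, 0.84 for tnt-2 and 0.66 for unc-27. On the same scale lev-11 stood at 0.43, pat-10 at -0.23 and tnc-2 at -0.64. Among genes of at least 20 FPKM set against others of like length, tni-3 reached 1.18 and pat-10 came to 0.01. Of the 8 genes at that level only tni-3 passed 2-fold. Of all 6002 genes so centred, 5.43% were at least 2-fold higher and 1.67% lower.

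**Figure D4:**
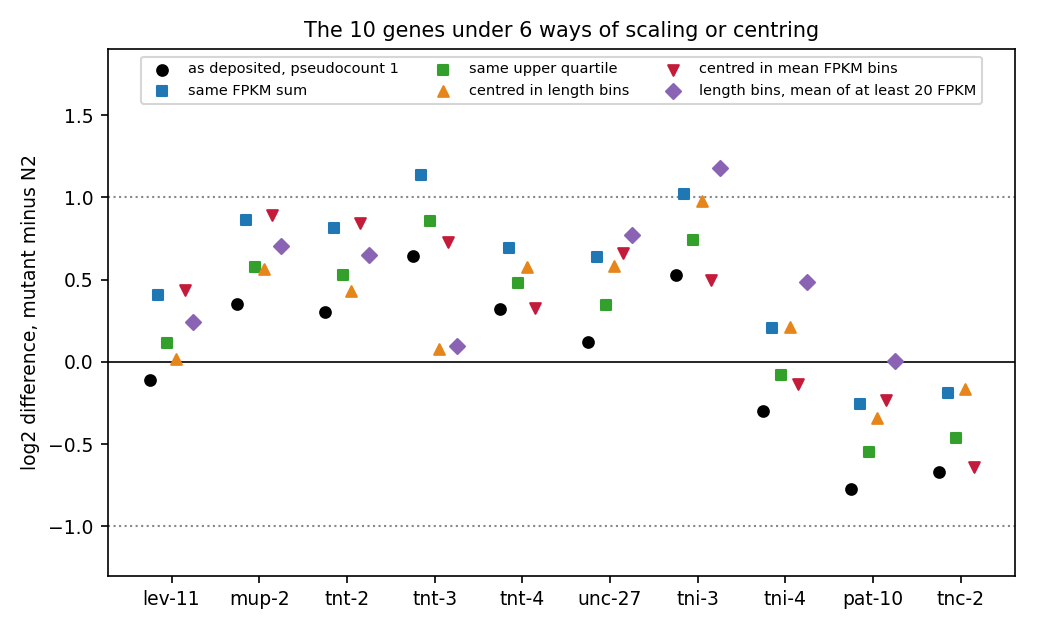
Log2 difference of each of the 10 genes under 6 ways of scaling or centring, with 1 point per setting; dotted lines mark 2-fold. The genes mup-2, tnt-2, tnt-3, unc-27 and tni-3 stay above 0 under all 6 and tnt-4 under the 5 that apply to it, tnc-2 stays below 0 under the 5 that apply to it, pat-10 lies below 0 except for a value of 0.01, and lev-11 and tni-4 cross 0.

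The scale of the libraries moved all 10 genes together. Rescaling to the same FPKM sum moved the median of all genes up by 0.44, and the same upper quartile moved it by 0.19. With the same sum, tnt-3 at 1.14 and tni-3 at 1.02 passed 2-fold, as did 20.4% of all 13436 genes in the same direction. At that scale lev-11 and tni-4 turned to 0.41 and 0.21. The troponin C genes stayed the lowest of the 10, at -0.26 for pat-10 and -0.19 for tnc-2.

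Other genes of the contractile apparatus showed where the thin filament switch stood among them. Actin, the filament itself, had a median log2 difference of 0.38, with 4 of 4 genes above 0 and 0 past 2-fold. Of these act-1 had 210.1 FPKM in the mutant and 161.4 in N2, act-3 had 228.6 and 167.9, act-4 had 900.6 and 738.7, and the intestinal act-5 had 773.4 and 592.3. The act-2 gene was listed at 0.0001 FPKM in both, and since the muscle actin genes are near-identical copies their single values are uncertain. Of 16 genes for assembly, capping and bundling of thin filaments, 0 passed 2-fold and the median was -0.07.

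The long transcripts of the thick filament differed by more. The myosin heavy chain genes of body wall muscle were more than 2-fold higher in the mutant library, with unc-54 at 393.1 FPKM against 127.8 in N2 and myo-3 at 50.8 against 15.7. Paramyosin, the core protein of the thick filament encoded by unc-15, had 544.6 FPKM against 238.2 in N2. The short myosin light chain genes were nearly level, with mlc-1 at 524.3 against 520.7 FPKM, mlc-2 at 788 against 887.9 and mlc-3 at 873.6 against 910.8. The myosin chaperone gene unc-45 had 26.4 against 21.9 FPKM. The level of unc-54 relative to lev-11 was 0.926 in the mutant library and 0.279 in N2, a ratio that no scaling alters. The heavy chain and paramyosin transcripts are 3424 to 6204 nt long. After centring by length 0 of the 7 genes on this list passed 2-fold, and the list median was 0.39. Centred in this way, unc-54 stood at 0.80, myo-3 at 0.83 and unc-15 at 0.69, while unc-45 stood at -0.24. Pharyngeal myosins were low, with myo-1 at 1.82 FPKM against 0.700 and myo-2 at 1.68 against 0.572. Both differ by more than 2-fold as deposited, but with the added 1 FPKM their log2 differences were 0.73 and 0.77. After centring by length these came to -0.08 for myo-1 and -0.04 for myo-2.

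Genes that supply the calcium to which troponin responds were all higher in the mutant library. The sarcoplasmic reticulum calcium pump sca-1 had 308.9 FPKM in the mutant and 171.0 in N2, and the store protein calsequestrin, csq-1, had 159.1 and 140.04. The ryanodine receptor unc-68 had 3.61 against 0.680 FPKM and the inositol trisphosphate receptor itr-1 had 15.1 against 5.41, and these were the 2 of 6 past 2-fold. The calcium channel egl-19 had 3.46 against 1.29 FPKM and the junctophilin jph-1 had 8.75 against 4.98. The values of egl-19 differ by more than 2-fold as deposited, but its log2 difference with the added 1 FPKM was 0.96. The median of the 6 was 0.91, which came to 0.36 after centring by length, with 0 past 2-fold. The list of giant sarcomere and M-line genes had 2 of 6 past 2-fold, both higher, with a median of 0.32. After centring by length its median was 0.42 and unc-22, which encodes the giant protein twitchin, remained past 2-fold at 1.48. The list of dense body genes, which anchor thin filaments, had 2 of 12 past 2-fold, both higher, with a median of 0.37, and 0 past 2-fold after centring by length.

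**Figure D5:**
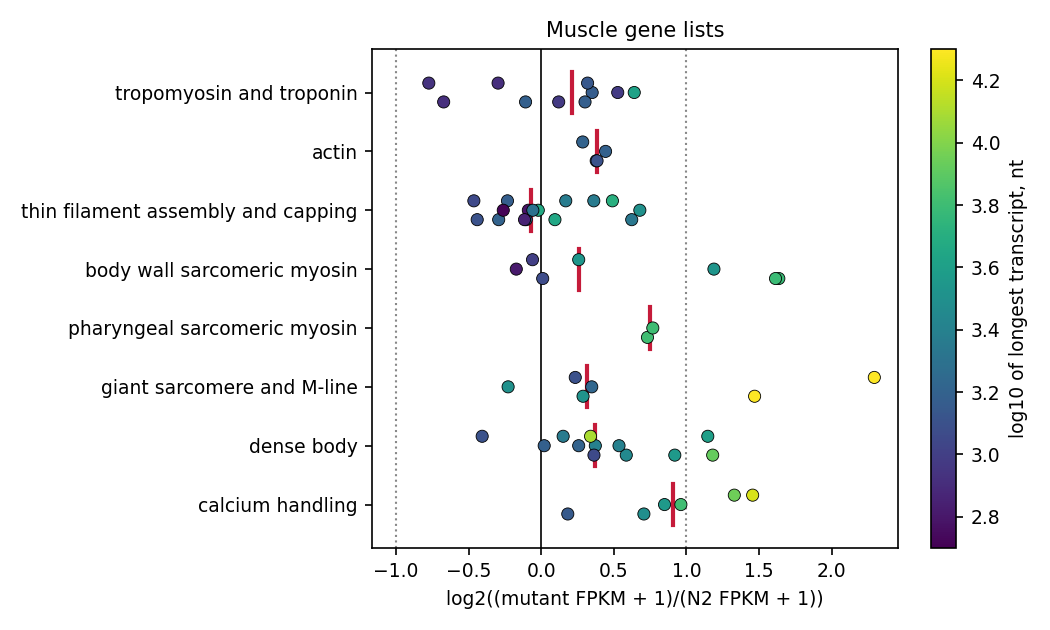
Log2 difference of each gene in 8 muscle gene lists, with colour for the longest transcript (log10 nt), a red bar for the median of each list and dotted lines at 2-fold. The 10 tropomyosin and troponin genes, the actins and the thin filament assembly genes all lie between the dotted lines, and the points beyond 1 belong to long transcripts such as unc-54, myo-3 and unc-68.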

How the data were processed

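Whole L4 larvae of 2 genotypes were sequenced as 1 library each. Per the submitters' processing notes, TopHat and Cufflinks were used with build WBcel235; versions and settings are not given there. The authors' deposited FPKM values, 1 column per library per the file headers, are normalized to transcript length and library size. The deposited ratio and log2 ratio of the authors divide mutant by N2 FPKM, with 0.0001 in place of 0. The deposited p-value and q-value are the authors' own. The labels do not say whether counting used strand, so that reads of overlapping genes on opposite strands, and of similar paralogs, may not be told apart.

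The log2 difference was computed with a pseudocount of 1 for genes whose mean reached 1 FPKM, and 2-fold was the size rule. No test was possible. Lengths and positions are from Ensembl release 115 of WBcel235, which held 99.2% of the gene identifiers. Length centring subtracts the median of 40 length bins over 12999 genes above 0.0001 FPKM in both libraries. Alternatives were other pseudocounts, filters, scalings, centrings and fold sizes. The ratio without a pseudocount and the centring by median transcript length were added after seeing the data.

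The 10 genes and the lists were chosen with earlier results of these data known. All 10 genes are named, with tni-1, flp-6, overlapping genes, and all actin, sarcomeric myosin and calcium genes. Of the other lists beside these, 0 of 12 neuronal genes passed 2-fold (median -0.26), 0 of 6 epidermal (-0.45), 1 of 8 germ line, higher (-0.04), 0 of 2 pharyngeal gland (0.51) and 1 of 5 muscle fate regulators, lower (0.21). Intestinal genes above 0.0001 FPKM in both libraries had 1 of 7 lower (0.21), and sperm genes had a median of 1.26. Python 3.11.15, numpy 2.4.6, pandas 2.3.3 and matplotlib 3.10.9 were used.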

Additional observations from a re-analysis of the deposited data

How the results depend on the processing

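No paired analysis was possible because each genotype has 1 library, and for the same reason no replicate could be left out. The median of the 10 genes stayed above 0 under every alternative run, from 0.12 to 0.66, and that of the 6 body wall troponin genes from 0.32 to 0.84. In the order all 10 genes, body wall, pharynx, the medians were 0.66, 0.84 and 0.21 with the same FPKM sum, 0.41, 0.55 and -0.078 with the same upper quartile, and 0.39, 0.51 and -0.12 with the median of genes of at least 5 FPKM set to 0. They were 0.32, 0.50 and 0.21 after centring in length bins, 0.47, 0.70 and -0.13 in mean FPKM bins, 0.57, 0.68 and 0.48 in length bins of genes of at least 20 FPKM, and 0.49, 0.53 and 0.16 in bins of median transcript length. With a mean of at least 5 FPKM required, which leaves out tnt-4, the pharyngeal median was -0.48. At least 2-fold higher were 2 of the 10 genes with the same sum, beside 20.4% of all genes. In the length bins of genes of at least 20 FPKM it was 1 of 8, beside 5.43% of all. A 1.5-fold size gave 1 gene higher and 2 lower, beside 19.4% and 26.3% of all genes. A 4-fold size gave 0 in either direction, beside 1.62% of all genes higher and 1.19% lower. Pseudocounts of 0.1 and 5, no pseudocount and no filter moved no median of these by 0.1 or more. The unknown depth leaves the counting error of tnt-4 and tnc-2, the lowest genes, without a value.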
